A study of Rattus norvegicus with 10 samples.

Results

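The genes described here are transcriptional targets of p53, in mammary tumours that the carcinogen 7,12-dimethylbenz(a)anthracene (DMBA) had induced in female Sprague-Dawley rats. The 9 genes listed were Cdkn1a, Mdm2, Ccng1, Bax, Bbc3, Gadd45a, Sesn1, Phlda3 and Btg2, and a gene was read by the brightest of the probe sets annotated to it alone. This rule found 7 of the 9, out of 14217 genes on the array with a probe set of their own, and the rule used no difference between samples. Bax was read only by a probe set shared with another gene, Btg2 was matched to no probe set in the annotation used here, and neither was analysed here. All 7 genes passed the filter on dim signals that left 10793 genes for testing.

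Every rat had received a single oral dose of 100 mg/kg DMBA and no other treatment. The biopsies, cores of 0.7 cm by 2.5 mm, came from rats aged 12 weeks whose tumour had reached 2 cm3, and the total tumours from rats aged 19 weeks. The 10 arrays, of the Affymetrix rat genome type, formed 5 pairs, from the tumours 31D3, 32D1, 37I1, 50I1 and 52I4, and the study compared both samples of the same tumour. The sample labels call the later sample the total tumour, while the design text calls both samples core biopsies. The study had chosen tumours by histological grade. The labels do not say which rat carried which tumour, and no sample of normal gland was analysed here.

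p53 is a transcription factor that DNA damage and oncogenic stress stabilise, and it binds paired copies of a short motif, the p53 decamer, near the genes it switches on. Its targets halt the cell cycle, start apoptosis, or act back on p53, as Mdm2 does by marking p53 for degradation. DMBA is converted in the body into reactive metabolites that form bulky DNA adducts, a lesion to which p53 responds.

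The sequences around the p53 decamers are shown because they hold the letters that p53 is known to recognise. RefSeq promoter windows of build GRCr8, from 250 bases before to 50 bases after the gene's start, were matched for 7 of the 9 listed genes, namely Cdkn1a, Gadd45a, Btg2, Phlda3, Mdm2, Ccng1 and Sesn1. The p53 decamer, a motif of 10 bases that reads the same way on both strands, was searched without mismatch, and a full site was a pair of decamers at most 3 bases apart with at most 1 mismatch over 20 bases. Full sites were found for 2 genes, against 0.368% of all 33469 windows, and decamers for 4 genes, against 7.98% of all windows. In the Cdkn1a window, at chr20:7150682-7150981 on the plus strand, the full site began 201 bases before the gene's start. In the Ccng1 window, at chr10:25684827-25685126 on the minus strand, it began 242 bases before the start. Both full sites held 1 mismatch and 1 exact decamer. The whole windows follow, with the full site in capitals.
Cdkn1a: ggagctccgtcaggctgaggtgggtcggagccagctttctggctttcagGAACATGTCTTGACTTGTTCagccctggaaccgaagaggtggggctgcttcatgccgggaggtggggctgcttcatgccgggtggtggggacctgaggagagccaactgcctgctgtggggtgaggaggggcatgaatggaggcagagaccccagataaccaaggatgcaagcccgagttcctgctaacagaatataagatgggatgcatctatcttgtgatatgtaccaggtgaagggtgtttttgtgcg
Ccng1: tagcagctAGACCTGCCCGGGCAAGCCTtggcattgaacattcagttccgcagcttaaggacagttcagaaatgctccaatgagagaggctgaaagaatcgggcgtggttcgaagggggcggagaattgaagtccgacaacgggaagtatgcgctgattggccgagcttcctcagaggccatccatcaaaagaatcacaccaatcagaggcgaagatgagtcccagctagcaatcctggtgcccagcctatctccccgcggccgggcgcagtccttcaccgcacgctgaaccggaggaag

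Gadd45a and Sesn1 held a single decamer each. It lay 48 bases before the Gadd45a start, in the stretch chr4:97486828-97486857 on the minus strand, and 172 bases before the Sesn1 start, in the stretch chr20:46948537-46948566 on the plus strand. Both stretches are given for comparison with the paired sites above, with the decamer in capitals.
Gadd45a: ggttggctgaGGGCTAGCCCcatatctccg
Sesn1: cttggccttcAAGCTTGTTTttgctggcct
The windows of Mdm2, Phlda3 and Btg2 held no decamer. A match is a description of the letters and not a measured binding site, and many p53 sites lie outside windows of this length.

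Epithelial markers were bright on average on every array. The mean log2 signal of 10 epithelial marker genes, Epcam and keratins among them, lay between 11.23 and 11.65 over the 10 arrays. Single markers could vary more, as Elf5 did, from 5.18 in the total tumour of 32D1 to 10.97 in that of 37I1. Stromal and immune content was uneven, with a mean of 8 fibroblast markers between 8.13 and 11.78 and of 8 leukocyte markers between 7.42 and 10.66. In such bulk samples fewer cells of a type and less RNA per cell cannot be told apart. The signal of the 3' Gapdh control probe set exceeded that of the 5' one by 0.04 to 0.22 in log2 over the 10 arrays, with a mean of 0.14 in both groups. For beta-actin this excess was 0.70 to 0.91, with means of 0.77 in the biopsies and 0.83 in the total tumours. For hexokinase it was 0.74 to 1.60, with means of 1.06 and 1.15, and it was highest in the total tumour of 31D3, the array with the highest Cdkn1a, Gadd45a and Mdm2 signals. The part of RNA quality in these values was not tested. Mast cell markers were the list that followed the groups, lower in the total tumour of all 5 pairs, with a mean of 5 genes between 8.82 and 10.97 in the biopsies and between 7.40 and 10.22 in the total tumours, and their part in the results was not tested. In the labels the array numbers of the biopsies form a consecutive series and those of the total tumours another, so array batch, age and way of sampling cannot be told apart from the group. The number of arrays limits the precision, and levels of different genes are not compared, since each probe set has its own scale.

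Cdkn1a was the p53 target with the clearest pattern in these tumours. It encodes p21, the inhibitor of cyclin-dependent kinases through which p53 halts the cell cycle. Its levels lay farther apart between tumours than between the moments of sampling, and it was higher in the total tumour of all 5 pairs. Of the other 6 genes, 5 had slightly higher means in the total tumours and Sesn1 a lower one, with differences that turned direction in at least 1 tumour each.

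**Figure D1:**
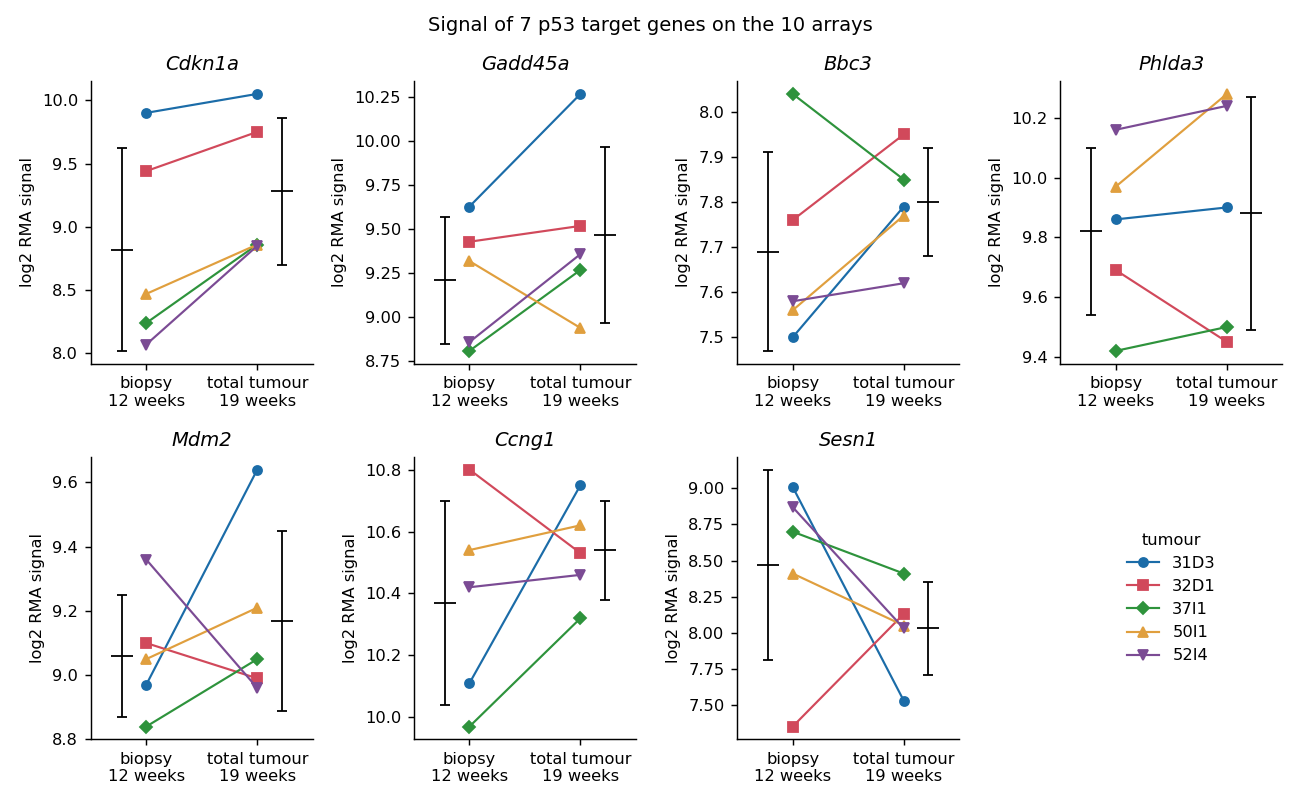
Log2 RMA signal (vertical axes) of the 7 genes in biopsies at 12 weeks and total tumours at 19 weeks. Each line joins both samples of 1 tumour, and black marks give group means with SD (n = 5). The Cdkn1a lines all go up and keep 31D3 and 32D1 on top, while the Sesn1 lines cross.

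Total tumours were compared with their own biopsies by limma with the tumour as a block, on log2 signals over 18625 probe sets, with p-values adjusted by the Benjamini-Hochberg method. No probe set passed an adjusted p under 0.05 in limma, so 0% of all probe sets and 0 of the 7 genes were called. At an unadjusted p under 0.05 there were 1133 probe sets in limma and 1013 by the paired test named in the study's methods. Among the 7 genes only Cdkn1a had an unadjusted p under 0.05, on the higher side, where 1.61% of all genes tested lay. None of the 7 had one on the lower side, where 2.56% of all genes lay. The median difference of the 7 genes was 0.11 in log2, against 0.00393 over all genes tested, and for 6 of the 7 the total tumours had the higher mean, against 51.2% of all genes. Biopsy and total tumour values overlapped for each of the 7 genes, as they did for most genes, since only 0.417% of all tested had groups that did not overlap.

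Whether tumours differed from each other was asked of the same fit, with a moderated F test of the tumour terms, which sets the spread between tumours against the spread left within them. This test called 16 probe sets, or 0.0859% of those tested, and 0 of the 7 genes. The count of 16 was 0 without 31D3, 32D1, 50I1 or 52I4 and 1 without 37I1, in fits that hold 2 arrays fewer. At an unadjusted p under 0.05 there were 1955 probe sets, against 1585 to 2100 with a tumour left out. Among the genes, 10.1% of all tested had such a p. Of the 7 target genes, Cdkn1a and Phlda3 were among them. The median F was 1.69 for the 7 genes and 1.33 for all genes.

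Cdkn1a, an arrest gene, had the smallest p of the 7 in both comparisons. In the biopsies the log2 signal of Cdkn1a was 9.90 in 31D3, 9.44 in 32D1, 8.24 in 37I1, 8.47 in 50I1 and 8.07 in 52I4. In the total tumours it was 10.05 in 31D3, 9.75 in 32D1, 8.86 in 37I1, 8.86 in 50I1 and 8.85 in 52I4. Tumours 31D3 and 32D1 were thus the highest at both moments, and each of their 4 arrays exceeded each of the 6 arrays of the other tumours. The means of both arrays spanned 8.46 in 52I4 to 9.98 in 31D3, which is 1.52 in log2 or 2.87-fold. The SD between these tumour means was 0.690, against a residual SD of 0.179 within tumours. The F was 26.5, with an unadjusted p of 4.01e-04 and an adjusted p of 0.144 in limma, which did not pass, and Cdkn1a ranked 51 of 18625 probe sets by this p.

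Between the moments, Cdkn1a averaged 8.82 ± 0.80 (SD, n = 5) over the biopsies and 9.28 ± 0.58 (SD, n = 5) over the total tumours. The paired difference was 0.45 (SE 0.120, 95% interval 0.16 to 0.74), or 1.37-fold (1.12 to 1.67). It had an unadjusted p of 0.00804 and an adjusted p of 0.642 in limma. The pairs gave 0.15 in 31D3, 0.31 in 32D1, 0.63 in 37I1, 0.39 in 50I1 and 0.79 in 52I4. The smallest differences belonged to the tumours with the highest biopsies, 31D3 and 32D1. The biopsy value enters both quantities, so this order is not a separate result. All 5 pairs being higher held for 2.41% of all genes.

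The other Cdkn1a probe set, which is dimmer, gave the same order of tumours at the top. Its signals in the biopsies were 7.30 in 31D3 and 7.13 in 32D1, and between 5.76 and 6.11 in the other 3 tumours. In the total tumours they were 7.35 and 7.21, and between 6.31 and 6.44 in the others. Its paired difference was 0.28 (SE 0.115), higher in 5 of 5 pairs, with an unadjusted p of 0.0504 and an adjusted p of 0.816 in limma. Its F between tumours was 22.4, with an adjusted p of 0.168. Both probe sets thus showed the same tumours high, and the brighter one showed the larger difference between moments.

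Gadd45a, whose product binds the replication clamp and cyclin-dependent kinase 1 and slows entry into mitosis, followed Cdkn1a most closely among the 7. Its log2 signal in the biopsies was 9.63 in 31D3, 9.43 in 32D1, 8.81 in 37I1, 9.32 in 50I1 and 8.86 in 52I4. The total tumours read 10.27 in 31D3, 9.52 in 32D1, 9.27 in 37I1, 8.94 in 50I1 and 9.36 in 52I4. Tumours 31D3 and 32D1 were again the highest at both moments, though 32D1 lay close to 50I1 in the biopsies. The paired difference was 0.26 (SE 0.167, 95% interval -0.14 to 0.66), higher in 4 of 5 pairs, with an adjusted p of 0.873 in limma. The exception was 50I1, at -0.39. Without that tumour the difference was 0.42, with an unadjusted p of 0.0222 and an adjusted p of 0.699 in limma. Leaving out another tumour instead gave 0.17 without 31D3 to 0.31 without 32D1, with unadjusted p-values from 0.181 to 0.395 in limma. The F between tumours was 4.10, with an unadjusted p of 0.0560 and an adjusted p of 0.485 in limma. It was 1.15 without 31D3 and 9.51 without 50I1.

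Gadd45a also answers to general stress, so the immediate early genes are given beside it. The mean log2 signal of 15 such genes, Fos, Egr1 and Atf3 among them, was highest in the total tumour of 31D3, at 10.47, where Gadd45a was highest too. The list differed between total tumour and biopsy by 0.71 in 31D3, -0.24 in 32D1, -0.32 in 37I1, -0.70 in 50I1 and -0.85 in 52I4. In 37I1 and 52I4 Gadd45a was higher by 0.46 and 0.50 while the list was lower, and in 50I1 both were lower. The part of this list in the Gadd45a values was not tested. The mean of 8 leukocyte markers was also highest in the total tumour of 31D3, at 10.66. It was lowest in the biopsy of 37I1, at 7.42, where Gadd45a was lowest too, at 8.81. Leukocyte signal and Gadd45a differed in the same direction in 31D3, 37I1 and 50I1, and in opposite directions in 32D1 and 52I4. The part of cell content in the Gadd45a values was not tested either.

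**Figure D2:**
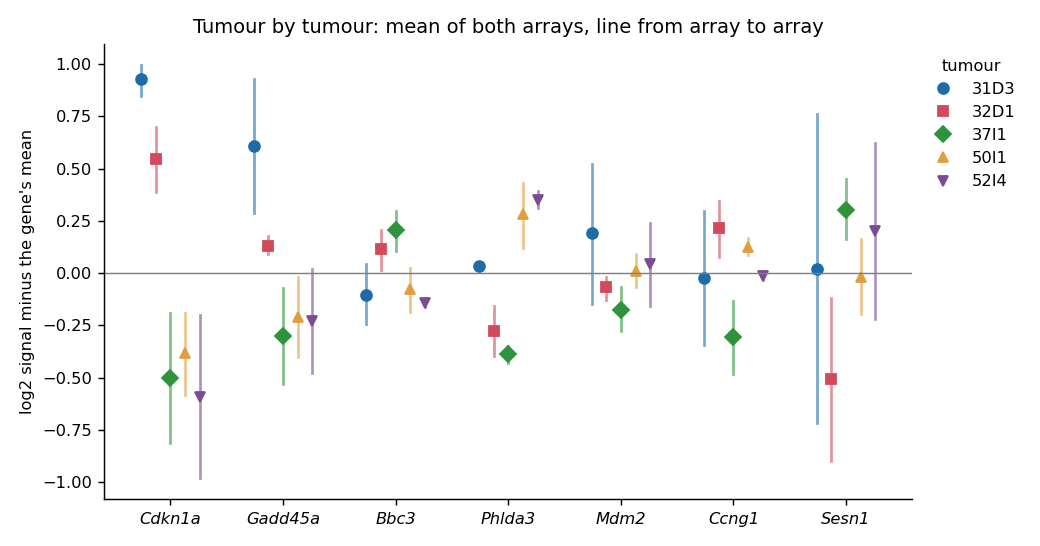
Log2 signal of each gene minus its mean over the 10 arrays (vertical axis), by gene and tumour. Symbols are the mean of both arrays of a tumour, and the line spans its biopsy and total tumour. The Cdkn1a lines of 31D3 and 32D1 lie above those of the other tumours without overlap, and the Sesn1 line of 31D3 is the longest.

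The apoptosis genes differed little between the moments. Bbc3 encodes PUMA, which binds the survival proteins of the BCL2 family and so frees the pore formers of mitochondria. Its log2 signal in the biopsies was 7.50 in 31D3, 7.76 in 32D1, 8.04 in 37I1, 7.56 in 50I1 and 7.58 in 52I4. Its total tumour values were 7.79 in 31D3, 7.95 in 32D1, 7.85 in 37I1, 7.77 in 50I1 and 7.62 in 52I4. Bbc3 thus varied within 0.55 in log2 over all 10 arrays, and 27.5% of all genes tested had a smaller span. The paired difference was 0.11 (SE 0.105, 95% interval -0.14 to 0.36), higher in 4 of 5 pairs and lower in 37I1. Its adjusted p in limma was 0.907, and its F between tumours was 1.69 with an adjusted p of 0.651.

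Phlda3, which encodes a small pleckstrin-homology protein that restrains AKT at the membrane, had the second-largest F of the 7 between tumours, and its order of tumours was another one. Its log2 signal in the biopsies was 9.86 in 31D3, 9.69 in 32D1, 9.42 in 37I1, 9.97 in 50I1 and 10.16 in 52I4. At 19 weeks it read 9.90 in 31D3, 9.45 in 32D1, 9.50 in 37I1, 10.28 in 50I1 and 10.24 in 52I4. The highest tumours, 50I1 and 52I4, were thus not those of Cdkn1a and Gadd45a, and 32D1, high for Cdkn1a, was among the low ones. The F between tumours was 7.64, with an unadjusted p of 0.0131 and an adjusted p of 0.371 in limma. Total tumours exceeded biopsies on average by 0.06 (SE 0.106, 95% interval -0.20 to 0.31), with an adjusted p of 0.951 in limma, and this difference was -0.01 without 50I1.

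The feedback and stress genes gave no common direction. Mdm2, the ubiquitin ligase that degrades p53 and is itself a p53 target, read 8.97 in 31D3, 9.10 in 32D1, 8.84 in 37I1, 9.05 in 50I1 and 9.36 in 52I4 in the biopsies. At 19 weeks the values were 9.64 in 31D3, 8.99 in 32D1, 9.05 in 37I1, 9.21 in 50I1 and 8.96 in 52I4. The total tumour of 31D3, which also had the highest Cdkn1a and Gadd45a, was the highest of the 10 arrays. The paired difference was 0.11 (SE 0.162, 95% interval -0.28 to 0.50), higher in 3 of 5 pairs, with an adjusted p of 0.940 in limma. It was -0.03 without 31D3 and 0.24 without 52I4, and it was 0.15 and -0.06 for the other 2 Mdm2 probe sets, so no direction can be given. The F between tumours was 0.563, with an adjusted p of 0.856.

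Ccng1 encodes cyclin G1, which recruits a phosphatase to Mdm2 and so takes part in the same feedback. Its log2 signal in the biopsies was 10.11 in 31D3, 10.80 in 32D1, 9.97 in 37I1, 10.54 in 50I1 and 10.42 in 52I4. The total tumours gave 10.75 in 31D3, 10.53 in 32D1, 10.32 in 37I1, 10.62 in 50I1 and 10.46 in 52I4. The total tumours lay closer together, with an SD of 0.16 against 0.33 in the biopsies, a difference in spread that was not tested. On average the pairs differed by 0.17 (SE 0.145, 95% interval -0.18 to 0.52) with an adjusted p of 0.891 in limma, higher in 4 of 5 pairs, and this difference was 0.05 without 31D3. The F between tumours was 1.49, with an adjusted p of 0.676. Cdkn1a and Ccng1, the genes with a full p53 site in the window, thus had unlike levels across the tumours, with an r of 0.337 over the 10 arrays.

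Sesn1, which encodes sestrin 1, a stress protein that restrains the growth kinase mTORC1, had the widest paired differences of the 7. Its log2 signal in the biopsies was 9.01 in 31D3, 7.35 in 32D1, 8.70 in 37I1, 8.41 in 50I1 and 8.87 in 52I4. In the total tumours it was 7.53 in 31D3, 8.13 in 32D1, 8.41 in 37I1, 8.05 in 50I1 and 8.03 in 52I4. The biopsy of 32D1 was the lowest of the 10 arrays and the biopsy of 31D3 the highest, so both tumours with high Cdkn1a stood at opposite ends. The paired difference was -0.44 (SE 0.303, 95% interval -1.16 to 0.29), lower in 4 of 5 pairs, with an adjusted p of 0.873 in limma. It ranged from -1.48 in 31D3 to 0.78 in 32D1, and it was -0.18 without 31D3. Without 32D1 it was -0.74, with an unadjusted p of 0.0190 and an adjusted p of 0.586 in limma. The other Sesn1 probe set gave -0.52 (SE 0.331), with -1.81 in 31D3 and 0.76 in 32D1, and an adjusted p of 0.873 in limma.

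**Figure D3:**
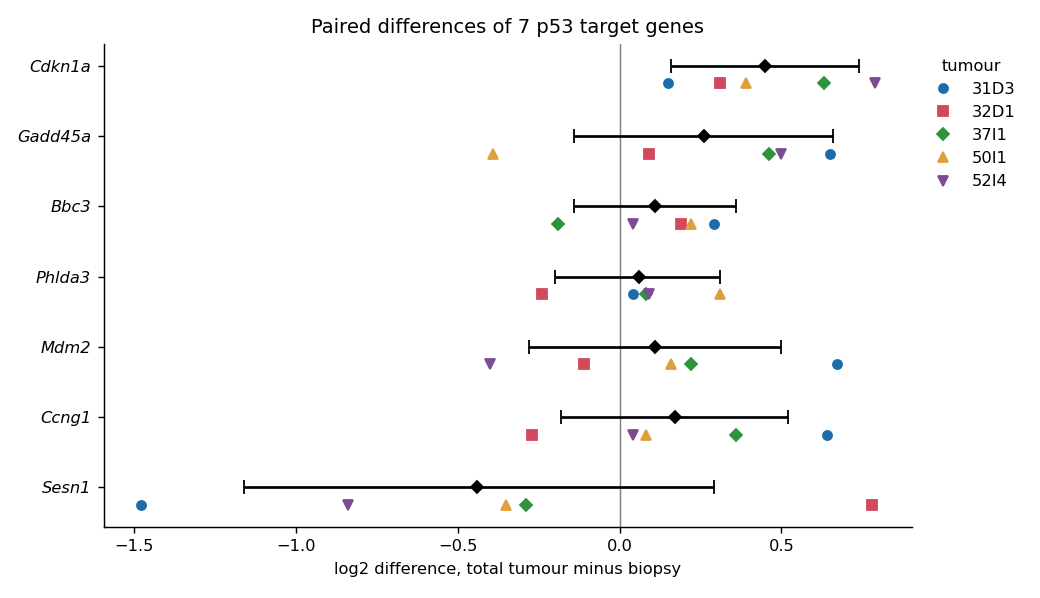
Log2 difference, total tumour minus biopsy (horizontal axis), for the 7 genes. Diamonds in black are the limma estimates with 95% intervals, and coloured symbols the 5 tumours. The Cdkn1a points all lie right of 0 (0.15 to 0.79), and the Sesn1 points range from -1.48 to 0.78.

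The 7 genes did not vary as 1 group. Over the 10 arrays, which hold 2 samples of each tumour and so are not independent, Pearson's r between Cdkn1a and Gadd45a was 0.857. Only 6 of 10792 other genes had a higher r with Cdkn1a than Gadd45a had. In the other direction, Cdkn1a ranked 46 by its r with Gadd45a. The r of Mdm2 with Ccng1 was 0.604, and that of Cdkn1a with Mdm2 was 0.245. Mdm2 ranked 1429 by its r with Ccng1, and Ccng1 481 by its r with Mdm2. Sesn1 ran against Ccng1, with an r of -0.839, and Phlda3 against Bbc3, with an r of -0.695. Counted from the highest r, Sesn1 ranked 10529 of 10792 with Ccng1, and Ccng1 10697 with Sesn1. Bbc3 ranked 10590 with Phlda3 and Phlda3 10452 with Bbc3, so other genes had a lower r each time. Cdkn1a and Phlda3 had an r of -0.200. These values are descriptions of the arrays at hand, with no test.

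**Figure D4:**
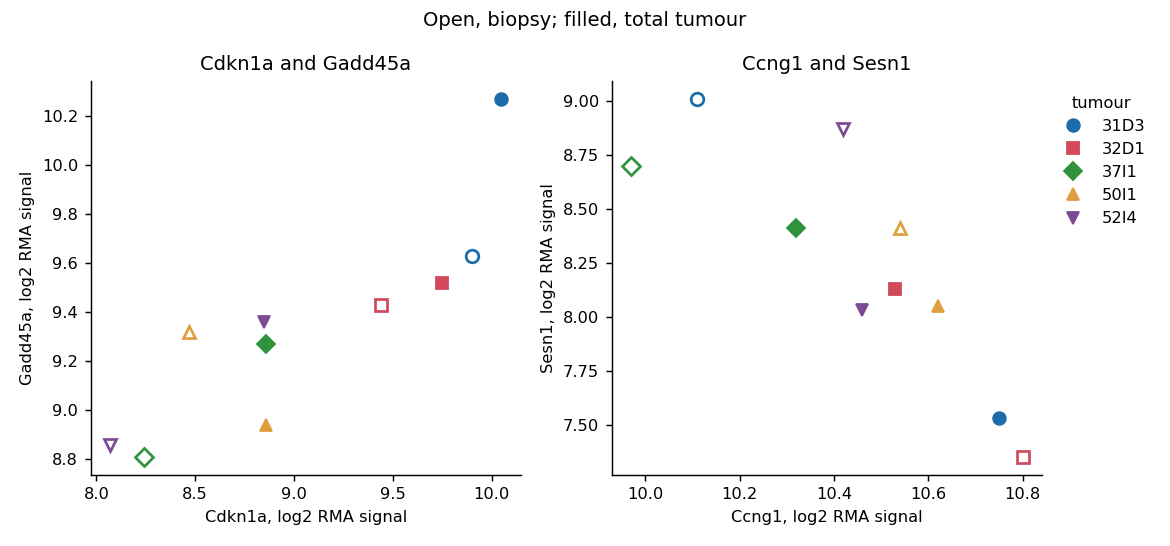
Log2 RMA signals on the 10 arrays, Gadd45a against Cdkn1a (left) and Sesn1 against Ccng1 (right). Open symbols are biopsies, filled ones total tumours, with 1 colour and shape per tumour. Gadd45a is high where Cdkn1a is high (r = 0.857), and Sesn1 is low where Ccng1 is high (r = -0.839).

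Among all genes tested, those with a pattern over the 10 arrays most like that of each target were taken as the 3 with the highest r. For Cdkn1a these were Atp6v1a (0.971), a subunit of the vacuolar proton pump, Plcb2 (0.900), a phospholipase, and Sstr3 (0.893), a somatostatin receptor. For Gadd45a they were Rhog (0.951), a small GTPase, Mcpt9 (0.950), a protease of the mast cell family, and Apol11a (0.948). Mdm2 was closest to Trpv5 (0.955), Atf4 (0.931), a transcription factor of the stress response, and Lysmd3 (0.927). For Ccng1 the nearest were Prelid3b (0.974) and the collagen-modifying enzymes P4ha1 (0.965) and Plod2 (0.963). Sesn1 had the highest values of all, with the corepressor Tle3 at 0.992, Cnnm3 at 0.987 and Ercc4, a DNA repair nuclease subunit, at 0.984. Bbc3 was nearest to the pyruvate carrier Mpc1 (0.935), Sarm1 (0.909) and Stam2 (0.907), and Phlda3 to Mycbp2 (0.972), Nxph3 (0.929) and Gdf11 (0.927). The closest genes of the 7 targets were all different, and no target was among the 3 closest of another. With only 3 taken out of 10792 genes each time, this does not tell whether the targets vary together.

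The wider pathway was read through 5 lists, and 0 of their genes passed an adjusted p under 0.05 in limma, in either comparison. Of all genes tested, the background for these counts, 51.2% averaged higher in the total tumours, 1.61% were higher and 2.56% lower at an unadjusted p under 0.05, and 10.1% had such a p between tumours. Of the regulators of p53, 11 of 15 had a probe set of their own, and all 11 were tested. Their median difference was -0.17, with 8 lower and 3 higher. At an unadjusted p under 0.05, 3 of the 11 were lower and 0 higher. Hipk2, a kinase that activates p53 for apoptosis, averaged 7.69 ± 0.61 in log2 (SD, n = 5) over the biopsies and 6.88 ± 0.12 (SD, n = 5) over the total tumours. It differed by -0.81 (SE 0.235; unadjusted p = 0.0122, adjusted p = 0.657 in limma) and was lower in 5 of 5 pairs, from -0.20 in 37I1 to -1.86 in 52I4. Mdm4, the partner of Mdm2 that blocks p53 activity, differed by -0.62 (SE 0.230; adjusted p = 0.765 in limma) and was lower in 4 of 5 pairs, with both of its probe sets lower. The coactivator Ep300, named after its value was seen, was the other gene under this p, with a difference of -0.27 (SE 0.102), and its 2 probe sets differed in sign.

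Between tumours, the p53 relative Tp63, a factor of basal and myoepithelial cells, and the checkpoint kinase Chek2 had an unadjusted p under 0.05, with F values of 8.43 and 8.41 and an adjusted p of 0.354 for each in limma. Chek2 was lowest in 31D3, with a mean of 5.76 over both arrays, and highest in 32D1, at 6.74, so the tumours with high Cdkn1a were its extremes. Cdkn2a, which encodes p16 and the Mdm2 inhibitor ARF, was also named after its values were seen. It was higher in all 5 pairs, by 3.04 in 31D3 and by 0.00340 to 0.43 in the other 4. Its mean difference was 0.84 (SE 0.444), with an adjusted p of 0.846 in limma. The biopsy of 31D3 had by far the lowest Cdkn2a signal, 6.40 against 8.01 to 8.42 in the other biopsies, while its Cdkn1a signal was the highest.

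The other arrest and repair targets had 11 of 14 genes with a probe set of their own and 10 tested. Their median difference was 0.17, with 9 higher and 1 lower, and 0 had an unadjusted p under 0.05 in the paired fit. Plk2, a stress-induced polo-like kinase, differed by 0.18 (SE 0.101) and Zmat3, an RNA-binding p53 target, by 0.16 (SE 0.108). These 2 were also the genes of the list with an unadjusted p under 0.05 between tumours, with F values of 9.06 and 4.92 and an adjusted p of 0.327 and 0.452 in limma. Plk2 was highest in 52I4 and 50I1, with means of 10.85 and 10.60 over both arrays, as Phlda3 was. By the mean of both arrays Zmat3 was highest in 31D3 and 32D1, at 7.90 and 7.82, though 50I1 lay at 7.80. Among the total tumours 32D1, at 7.74, lay below 50I1 at 7.89 and 52I4 at 7.75, unlike for Cdkn1a and Gadd45a.

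The other apoptosis targets had 12 of 14 genes with a probe set of their own and 11 tested, with a median difference of 0.02, 7 higher and 4 lower. None had an unadjusted p under 0.05 in the paired fit. Pidd1, a scaffold that activates caspase 2, differed by -0.35 (SE 0.157) and Perp, a desmosomal protein of epithelia, by -0.19 (SE 0.120). Between tumours, Casp6, an executioner caspase, and the death adaptor Siva1 had an unadjusted p under 0.05, with F values of 5.37 and 4.41. The feedback, metabolic and secreted targets had 10 of 14 genes with a probe set and 9 tested, with a median of -0.03. None of these 9 had an unadjusted p under 0.05 in either comparison. Gls2, a mitochondrial glutaminase, differed by -0.45 (SE 0.316) and the phosphatase Ppm1d, which switches p53 off, by -0.18 (SE 0.148). Sesn2, the relative of Sesn1, differed by only -0.02 (SE 0.127), and the nuclear body gene Pml by 0.09 (SE 0.181).

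**Figure D5:**
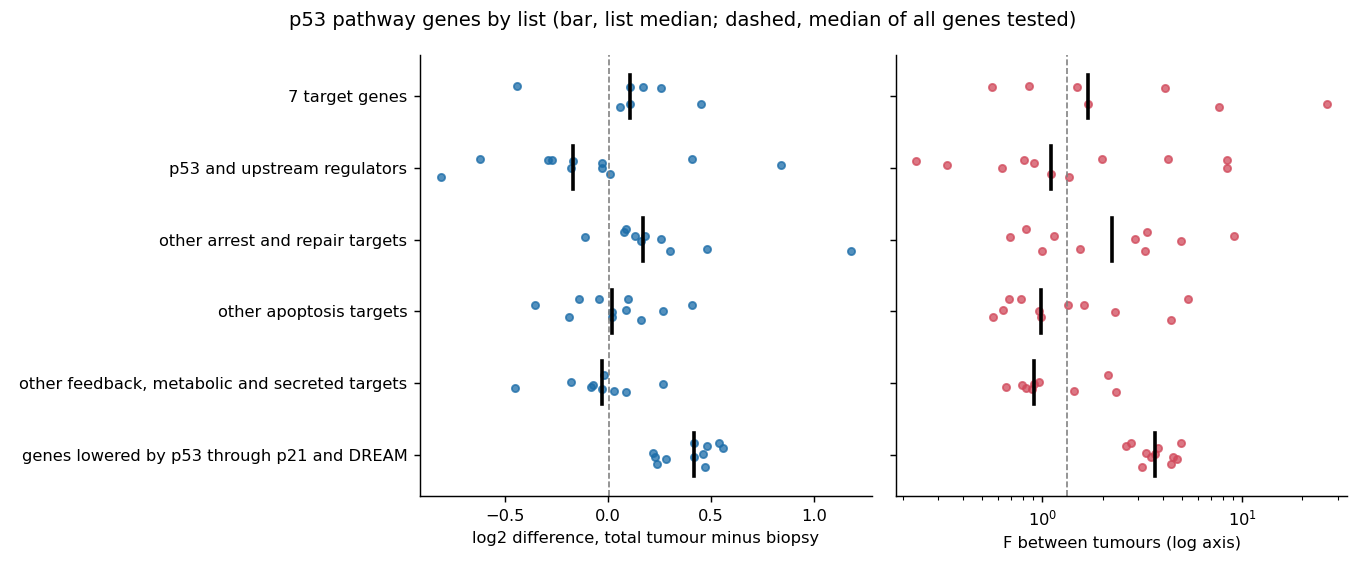
Genes of the 5 pathway lists and the 7 targets, by log2 difference, total tumour minus biopsy (left), and by F between tumours on a log axis (right). Points are genes, black bars list medians and dashed lines the medians of all genes tested (0.00393 and 1.33). The cell cycle genes sit at a median of 0.42 and an F of 3.68.

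Cell cycle genes that p53 lowers through p21 and the DREAM repressor complex were read beside Cdkn1a. Of 12, 11 were tested, and for all 11 the mean of the total tumours was higher, with a median difference of 0.42. Of these, 1 had an unadjusted p under 0.05, the factor E2f1, at 0.56 (SE 0.207; adjusted p = 0.772 in limma). Mcm5, a subunit of the replicative helicase, differed by 0.47 (SE 0.294). The median over the list was 1.34 in 31D3, 0.86 in 50I1 and 1.19 in 52I4, but -0.64 in 32D1 and -0.75 in 37I1. Cdkn1a was higher in all 5 tumours, so a higher Cdkn1a went with higher cell cycle genes in 3 tumours and with lower ones in the other 2. Between tumours, Ccnb1, Plk1, Ccnb2 and Birc5 had an unadjusted p under 0.05, with F values of 4.93, 4.70, 4.41 and 4.52, the last 2 genes being named after their values were seen. Ccnb1, the mitotic cyclin, had a mean over both arrays of 7.15 in 31D3 and 9.37 in 32D1, the lowest and the highest of the 5 tumours.

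In the biopsies, the tumours with the highest Cdkn1a stood at opposite ends of the cell cycle list. Its mean log2 signal was lowest in 31D3, at 6.47, and highest in 32D1, at 9.19, with 7.86 in 37I1, 8.04 in 50I1 and 7.42 in 52I4. At 19 weeks the list stood at 7.64 in 31D3, 8.56 in 32D1, 7.26 in 37I1, 8.93 in 50I1 and 8.54 in 52I4. Cell content also differed between these tumours. The 8 leukocyte markers averaged 9.75 in the biopsy and 10.66 in the total tumour of 31D3, and 9.42 and 9.11 in those of 32D1. For 37I1 they averaged 7.42 and 9.25, for 50I1 9.96 and 8.32, and for 52I4 9.26 and 8.54. Leukocyte signal was thus high in 31D3 at both moments, but in the biopsies 50I1 exceeded it. The biopsy of 50I1 had the most leukocyte and fibroblast signal of the 5 biopsies, with fibroblast markers at 11.74, and a Cdkn1a signal of 8.47. The part of cell content in the Cdkn1a values was not tested.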

How the data were processed

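The authors deposited a log2 signal per probe set and array, made with RMA (Robust Multichip Average) as the submitters' processing notes name it. The scale was taken from the range of the values, 2.34 to 14.26, and the RMA software version is not given in the sources used here. RMA removes shifts shared by most transcripts of an array. Samples were grouped and paired by the tumour names in the labels. Deviations from the group means correlated within pairs at 0.18 in 31D3, 0.28 in 32D1, 0.30 in 37I1, -0.18 in 50I1 and 0.32 in 52I4. The biopsy of 50I1 correlated best with the total tumour of 31D3, at 0.31, and the biopsy of 31D3 with that of 37I1, at 0.19. The other biopsies correlated best with their own total tumour. Of 31099 probe sets, 57 controls were left out. Of the rest 20826 had 1 gene in the platform annotation, 436 several and 9780 none listed, and the dimmest 40% by mean signal (limit 5.15) were not tested. The series text mentions such a filter without a number.

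The paired difference and the F test between tumours were fitted with limma 3.58.1 (lmFit, eBayes; R 4.3.3), with Benjamini-Hochberg adjustment over all 18625 probe sets and a threshold of 0.05. A gene was read by its brightest probe set. Paired p-values cover only the spread of the differences among the 5 tumours. Those of the F test set the tumours against the spread left within them. The tumours may share a rat. The steps were tested on simulated data.

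The targets and lists were chosen with earlier results of these data known. Named genes were the targets, from each list the 2 genes with the smallest p in each comparison, and the 3 genes most like each target. Others are marked where named. Alternatives were other filters and normalizations, trend, array weights, the mean of probe sets, no tumour block, no moment term, the paired test that the design text names, and leaving out each tumour. Figures were drawn with matplotlib 3.10.9.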

Additional observations from a re-analysis of the deposited data

How the results depend on the processing

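In the paired comparison, 0 probe sets and 0 of the 7 targets were called under all 15 alternatives, with no replicate block included, where the Cdkn1a difference was the same 0.45 but its unadjusted p in limma was 0.279. The Cdkn1a difference lay between 0.36 and 0.53 over these alternatives, with no adjusted p below 0.460 in limma or in the methods' paired test. Of 105 recomputed differences of the targets 3 turned sign: Mdm2 was -0.00453 with array weights, and leaving out 1 tumour gave -0.03 to 0.24 for Mdm2 and -0.01 to 0.13 for Phlda3. The count of targets with a higher mean, a result added after seeing the data, was 5 with array weights, without 31D3 and without 50I1, and 6 otherwise. Between tumours, the 16 probe sets called became 26 with no filter and 8 with the dimmest 60% left out, where the number of probe sets tested changes, and 0 to 1 with a tumour left out, where fewer arrays enter the fit. None of the targets was called between tumours in any of the 14 alternatives, and the F of Cdkn1a lay between 9.46, with no moment term, and 30.1. Signals near background limit the dim genes, of which the lists lost 3 to the filter.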
